A study of Mus musculus with 4 samples.

Results

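Rab GTPases, the small GTP-binding proteins that direct membrane traffic, were examined in the transcriptome of cultured mouse macrophages labelled as wild type (WT) or knockout (KO) for the stress granule scaffold gene G3bp1. The members were the genes whose symbol was Rab followed by a number and at most 1 letter and which had at least 10 counts in at least 2 of the 4 libraries. Of the 34745 genes in the table, 59 carried such a symbol and 47 of these passed the count rule. By the compartment where each protein is best known to act, the 47 genes were grouped as 7 early endosomal, 8 recycling, 10 late endosomal, 8 secretory, 11 Golgi and ER and 3 other Rabs.

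The libraries were made from total RNA of bone marrow-derived macrophages grown in DMEM with serum. The WT macrophages came from G3bp1f/f mice, in which the G3bp1 gene is flanked by loxP sites, and the KO macrophages came from G3bp1mac-/- mice, which carry the same floxed gene and the Cre recombinase under the Lyz2 promoter. Lyz2-Cre acts in myeloid cells and not in macrophages alone, and an age and a sex were stated for the purchased C57BL/6J mice but not for the floxed mice. Each genotype had 2 libraries, numbered 1 and 2, and nothing stated that these were from separate mice, so the p-values measure the spread between these libraries, which may be technical.

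The libraries held between 16724241 and 19747909 gene counts. The limit that a count of 0 allows (3 counts) was 0.152 to 0.188 CPM, where CPM is the count scaled to a common TMM-adjusted library total, and it covers counting error only. G3bp1 itself had 1691 and 2875 WT counts and 1307 and 2296 KO counts, so the genotypes overlapped, and its log2 fold change of KO over WT (log2 FC) was -0.61 (SE 0.40, edgeR adjusted p 0.904). Within a replicate number G3bp1 was lower in KO both times, at log2 ratios of -0.57 and -0.63. Leaving out WT replicate 2 or KO replicate 1 brought the log2 FC to -0.19 and -0.28, and leaving out WT replicate 1 or KO replicate 2 to -0.95 and -1.03. Counts per gene do not show whether the deleted exons are missing. All 8 macrophage markers examined were present, and they summed to between 21056 and 26322 CPM per library, most of it from Lyz2 at 16869 to 21870 CPM. Of the 8, Itgam was higher in both KO libraries (310 and 227 CPM, against 181 and 124 CPM in WT). Cd68 was lower in both (2888 and 2935 CPM, against 3279 and 3299 CPM in WT), and the others overlapped. The 6 stromal markers (the collagens Col1a1, Col1a2 and Col3a1, Dcn, Pdgfra and Pdgfrb) summed to 73.2 and 86.8 CPM in WT and 319 and 293 CPM in KO, and for 5 of the 6 both KO values exceeded both WT values. The 6 mast cell and basophil markers summed to 73.9 and 69.0 CPM in WT and 30.5 and 37.8 CPM in KO, with Mcpt8 at 0 in every library. The 6 neutrophil markers summed to 20.2 and 20.8 CPM in WT and 7.24 and 10.9 CPM in KO, nearly all of it from S100a8 and S100a9. Elane and Mpo were at 0, and Ly6g had at most 1 count in a library. The 3 B cell markers summed to 12.6 and 15.6 CPM in WT and 8.05 and 7.06 CPM in KO, and the 3 erythroid markers to 9.25 and 6.84 CPM in WT and 1.66 and 2.29 CPM in KO. The 6 epithelial markers summed to 6.78 and 6.46 CPM in WT and 4.99 and 5.28 CPM in KO, with Krt5 at 0. The 4 platelet markers summed to 225 and 149 CPM in WT and 80.8 and 115 CPM in KO, nearly all of it from Pf4, with Gp9 at 0. Itga2b had 3 and 1 WT counts and 9 and 2 KO counts, and Ppbp at most 3 counts in a library. The sums of the mast cell and basophil, neutrophil, B cell, erythroid, epithelial and platelet markers were thus lower in both KO libraries than in both WT libraries. The 3 T and NK cell markers stayed under 0.62 CPM. In bulk RNA, fewer cells of a type and less RNA per cell cannot be told apart. The part of these other cell types in the Rab values below was not tested.

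A Rab protein works as a switch. Guanine nucleotide exchange factors (GEFs) load it with GTP on a given membrane, where it recruits effectors that tether, move or fuse vesicles, and GTPase-activating proteins (GAPs) return it to the GDP form that GDP dissociation inhibitors extract. Macrophages use this system for phagocytosis and efferocytosis, since a phagosome acquires Rab5 early and Rab7 later as it matures toward fusion with lysosomes, while recycling Rabs return receptors to the surface.

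The levels of the Rab genes were compared per length, with the deposited FPKM values. Together the 47 genes took between 0.478% and 0.501% of all counts of a library. The mean FPKM over the 4 libraries ran from 0.030 for Rab36 to 127 for Rab1b, 22 genes were above 10 FPKM and 10 were below 1 FPKM. The 7 genes highest by this mean made up 49.8% of the summed Rab FPKM. They were Rab1b, Rab7, Rab2a, Rab5c, Rab18, Rab32 and Rab8b. Single libraries held 5 or 6 of these among their own 7 highest, and Rab32, at 31.4 and 37.5 FPKM in the replicates 1 and 105 and 110 FPKM in the replicates 2, ranked 16, 3, 13 and 3 in WT replicates 1 and 2 and KO replicates 1 and 2.

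Rab1b, which acts in transport from the ER to the Golgi, had 116 and 120 FPKM in WT and 144 and 128 FPKM in KO. Rab7, the late endosomal Rab that drives fusion with lysosomes, had 120 and 119 FPKM in WT and 113 and 123 FPKM in KO. These neighbours in the order overlapped in their libraries, so which of them was higher was not settled by these libraries. Rab2a, which also acts between ER and Golgi, followed with 91.3 to 96.5 FPKM over the 4 libraries, and Rab5c, an early endosomal Rab5 form, with 69.4 to 83.5 FPKM. Rab8b, which serves secretory traffic from the Golgi to the surface, had 60.1 to 85.6 FPKM. Among recycling Rabs Rab11a, the marker of the recycling endosome, had the highest mean over the libraries, with 23.6 to 33.6 FPKM. It overlapped with Rab35 at 21.8 to 28.1 FPKM and with Rab12 at 6.68 to 38.2 FPKM, so the order of these 3 was not settled. The order depends on the gene length used. The length that count and FPKM imply was between 0.329 and 2.73 times the GENCODE exon length of the same gene, and with the latter Rab18 moved from rank 5 to rank 19 and Rab7 came first.

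**Figure D1:**
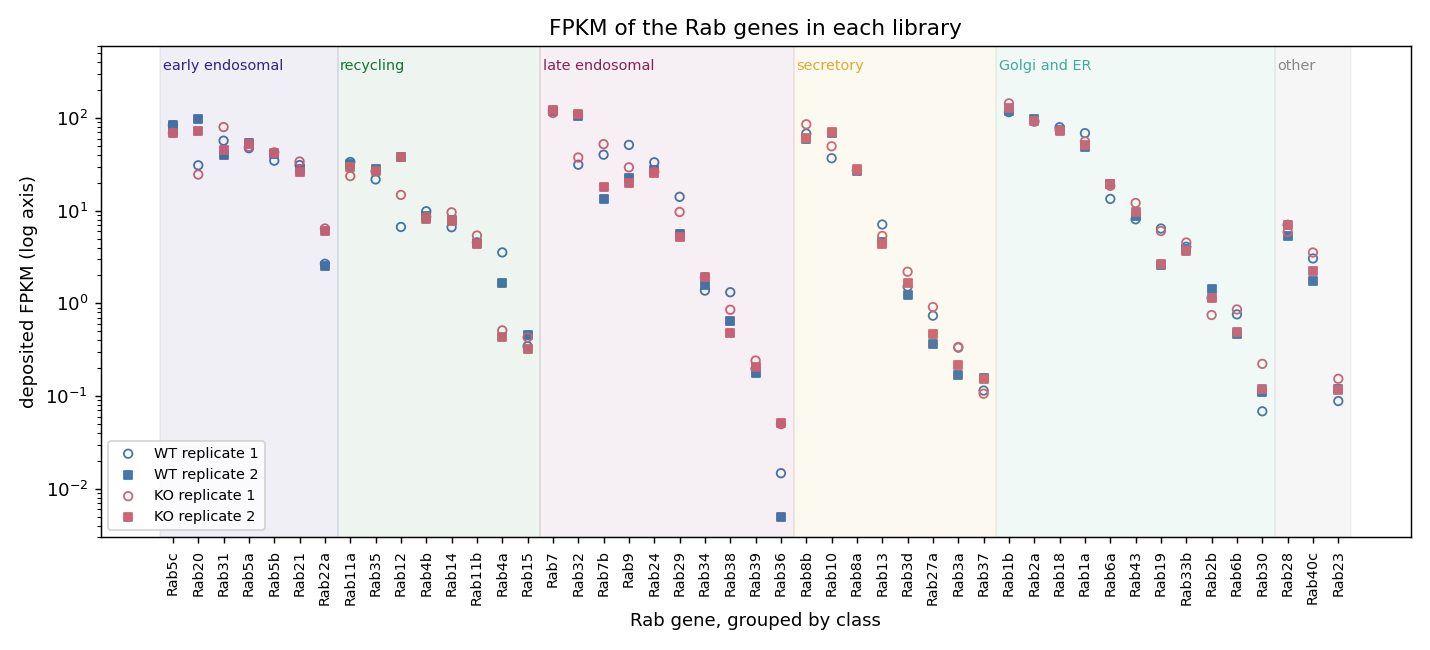
Deposited FPKM (log axis) of the 47 Rab genes in each of the 4 libraries, grouped by class and ordered by mean level within it. Circles are replicate 1 and squares replicate 2, blue WT and red KO; among members with a mean above 1 FPKM, Rab4a and Rab22a have the blue and red points farthest apart by genotype mean, with both red points of Rab4a below 1 FPKM, and Rab12, Rab20 and Rab32 split by replicate number.

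The class shares of the genotypes overlapped for all classes but the secretory Rabs. Early endosomal Rabs made up 23.7% and 26.5% of the summed Rab FPKM in WT and 24.3% and 24.3% in KO. Recycling Rabs made up 7.18% and 9.28% in WT and 7.13% and 8.96% in KO. In both of these classes the genotypes overlapped. Late endosomal Rabs took 24.3% and 22.5% in WT and 21.6% and 23.6% in KO, again overlapping. Secretory Rabs took 11.7% and 12.5% in WT and 13.6% and 12.9% in KO, so here both KO values exceeded both WT values. The secretory means were 12.1% ± 0.514 in WT and 13.3% ± 0.514 in KO (SD, n = 2 each), and the smallest p that an exact permutation test of 2 against 2 libraries allows is 0.333. Golgi and ER Rabs took between 28.7% and 32.5%, and the 3 other Rabs between 0.547% and 0.842%. Most of the secretory share came from Rab8a, Rab8b, Rab10 and Rab13, which also act in recycling. With these 4 genes counted as recycling Rabs, the secretory share was 0.223% and 0.147% in WT and 0.283% and 0.193% in KO, so the genotypes overlapped in this class too. With the classes as listed, they stayed apart by CPM (13.2% and 14.5% in WT, 15.1% and 14.7% in KO) and by GENCODE exon length (9.64% and 10.6% in WT, 11.6% and 10.9% in KO).

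**Figure D2:**
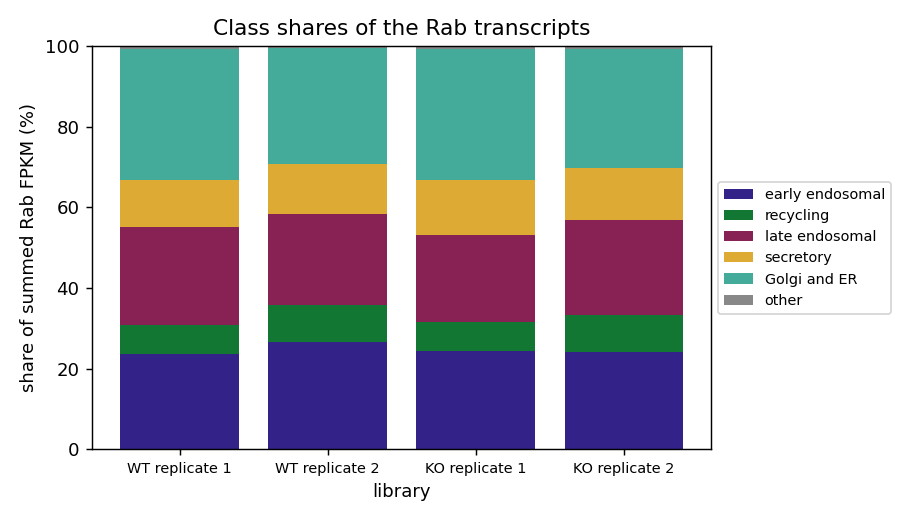
Share of the summed Rab FPKM (%) taken by each class in each library, as stacked bars that start at 0. Golgi and ER Rabs make up 28.7% to 32.5% and recycling Rabs 7.13% to 9.28% in every library of either genotype.

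Promoter sequence was available for 39 of the 47 genes, as 51 promoters of the RefSeq table (build GRCm38.p6), and the 250 bases before each start were searched. Both strands were searched for the GC box GGGCGG, the CCAAT box CCAAT, the E-box CACGTG, the AP-1 motif TGANTCA and the PU.1 core GAGGAA. The Rab promoters were rich in CpG, with a median of 18 CpG against 6 over all 32851 promoters. A GC box was present in 68.6% of the Rab promoters and in 32.7% of all promoters, and a CCAAT box in 41.2% against 33.8%. An E-box was present in 9.80% against 6.02%, AP-1 in 3.92% against 6.75% and the PU.1 core in 15.7% against 23.3%. A match is a description of letters and not a site of binding.

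The promoters of 4 genes named below are shown. They are Rab22a, one of 3 Rabs with an unadjusted edgeR p under 0.05 between the genotypes, and Rab12, Rab20 and Rab32. The last 3 were over 2-fold higher in replicate 2 than in replicate 1 of either genotype. All 4 were chosen after the values were seen, and no value was tested against promoter sequence. Capitals mark any of the motifs above on either strand, so a motif on the minus strand appears as its reverse complement, and neighbouring or overlapping motifs run together. Only bases before the earliest start that the deposited file, GENCODE or RefSeq gives for the gene are printed, so the runs are 165 to 192 bases long. The printed run of Rab22a holds 3 GC boxes and 11 CpG, that of Rab12 holds 1 GC box and 22 CpG, that of Rab20 holds 1 GC box and 5 CpG, and that of Rab32 holds 1 PU.1 core, no GC box and 3 CpG. Outside the printed bases, the searched promoters of these genes also hold a CCAAT box for Rab22a, a PU.1 core for Rab12 and an E-box for Rab20.
Rab22a (chr2:173659595-173659759, plus strand): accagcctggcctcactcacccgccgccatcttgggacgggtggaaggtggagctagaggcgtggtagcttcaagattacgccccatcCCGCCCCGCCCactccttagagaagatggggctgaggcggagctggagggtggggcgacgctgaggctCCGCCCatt
Rab12 (chr17:66519730-66519920, minus strand): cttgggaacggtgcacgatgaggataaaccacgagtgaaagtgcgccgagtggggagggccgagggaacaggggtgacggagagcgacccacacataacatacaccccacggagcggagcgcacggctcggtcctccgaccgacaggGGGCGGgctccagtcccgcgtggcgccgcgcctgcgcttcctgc
Rab20 (chr8:11478711-11478890, minus strand): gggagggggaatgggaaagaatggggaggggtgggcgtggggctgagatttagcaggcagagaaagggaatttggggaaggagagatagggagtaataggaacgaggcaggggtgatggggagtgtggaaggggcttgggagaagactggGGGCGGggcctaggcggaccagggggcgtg
Rab32 (chr10:10558266-10558457, minus strand): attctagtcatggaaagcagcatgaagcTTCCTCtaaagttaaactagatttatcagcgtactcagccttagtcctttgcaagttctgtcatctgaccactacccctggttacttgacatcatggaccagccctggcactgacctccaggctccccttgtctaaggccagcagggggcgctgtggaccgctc

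The comparison of KO with WT asked which Rab genes differ between the libraries carrying these G3bp1 labels. Of the 47 genes, 46 had enough counts to be tested. edgeR's quasi-likelihood test called 0 of them (adjusted p below 0.05 with a log2 FC beyond 1 in size), as it called 0 of all 12418 genes tested (0.0%). At an unadjusted p under 0.05, Rab22a and Rab36 were higher in KO (4.35% of the tested Rabs, against 4.64% of all genes) and Rab4a was lower (2.17% against 1.99%), so both shares lay close to the background. Rab36 passed the count rule only through the KO libraries, so its direction was built into its selection here and in the counts below. The DESeq2 Wald test called Rab22a and Rab4a (4.35%, against 1.46% of all genes), and the edgeR exact test called Rab4a (2.17% against 1.84%). With a term for the replicate number (replicate block) Rab22a and Rab4a were called (4.35% against 5.35%), but the labels do not say that the numbers pair the libraries.

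The median log2 FC of the Rab genes was -0.07 (interquartile range -0.28 to 0.08) and that of all genes 0.04 (-0.23 to 0.26). Of the 46 Rab genes, 18 were above 0 and 28 below, while 54.6% of all genes were above 0. Leaving out WT replicate 2, KO replicate 2 or KO replicate 1 brought the Rab median to -0.17, -0.14 and -0.13, against 0.07, 0.02 and 0.01 for all genes. With DESeq2 size factors 15 Rab genes and 50.3% of all genes were above 0, and with the length correction 13 and 43.5%. In 38 of the 46 the log2 FC was smaller than 0.5 in size. Both KO values exceeded both WT values for 6 Rab genes (13.0%, against 20.0% of all genes), and both KO values were under both WT values for 13 (28.3%, against 16.9%). With DESeq2 size factors the counts were 4 above (8.70%, against 17.4% of all genes) and 15 below (32.6% against 19.0%), and with unscaled library totals 8 above (17.4% against 31.6%) and 7 below (15.2% against 9.39%). The counts moved with the scaling, while with each of the 3 scalings the share above was smaller and the share below larger than over all genes. With TMM scaling the 13 lower genes were Rab1a, Rab2a, Rab2b, Rab18, Rab24, Rab33b, Rab4a, Rab4b, Rab5c, Rab7, Rab8a, Rab11a and Rab13, and the 6 higher ones Rab1b, Rab3d, Rab22a, Rab34, Rab36 and Rab43.

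By class, the median log2 FC was -0.14 for early endosomal, -0.15 for recycling, -0.09 for late endosomal, 0.0028 for secretory and -0.14 for Golgi and ER Rabs, and 0.10 for the 3 other Rabs. Over the alternative settings the median ran from -0.18 to -0.0035 for early endosomal, -0.33 to -0.07 for recycling, -0.32 to 0.03 for late endosomal, -0.12 to 0.06 for secretory and -0.18 to -0.03 for Golgi and ER Rabs. The late endosomal median was above 0 only without WT replicate 1, and the secretory median fell under 0 with DESeq2 size factors, no filter, the length correction or any library but WT replicate 1 left out. The ranges of single genes overlapped widely. Early endosomal Rabs ran from -0.54 to 1.10, recycling Rabs from -2.61 to 0.11, late endosomal Rabs from -0.75 to 2.14 and secretory Rabs from -0.43 to 0.32. No class was tested against another.

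**Figure D3:**
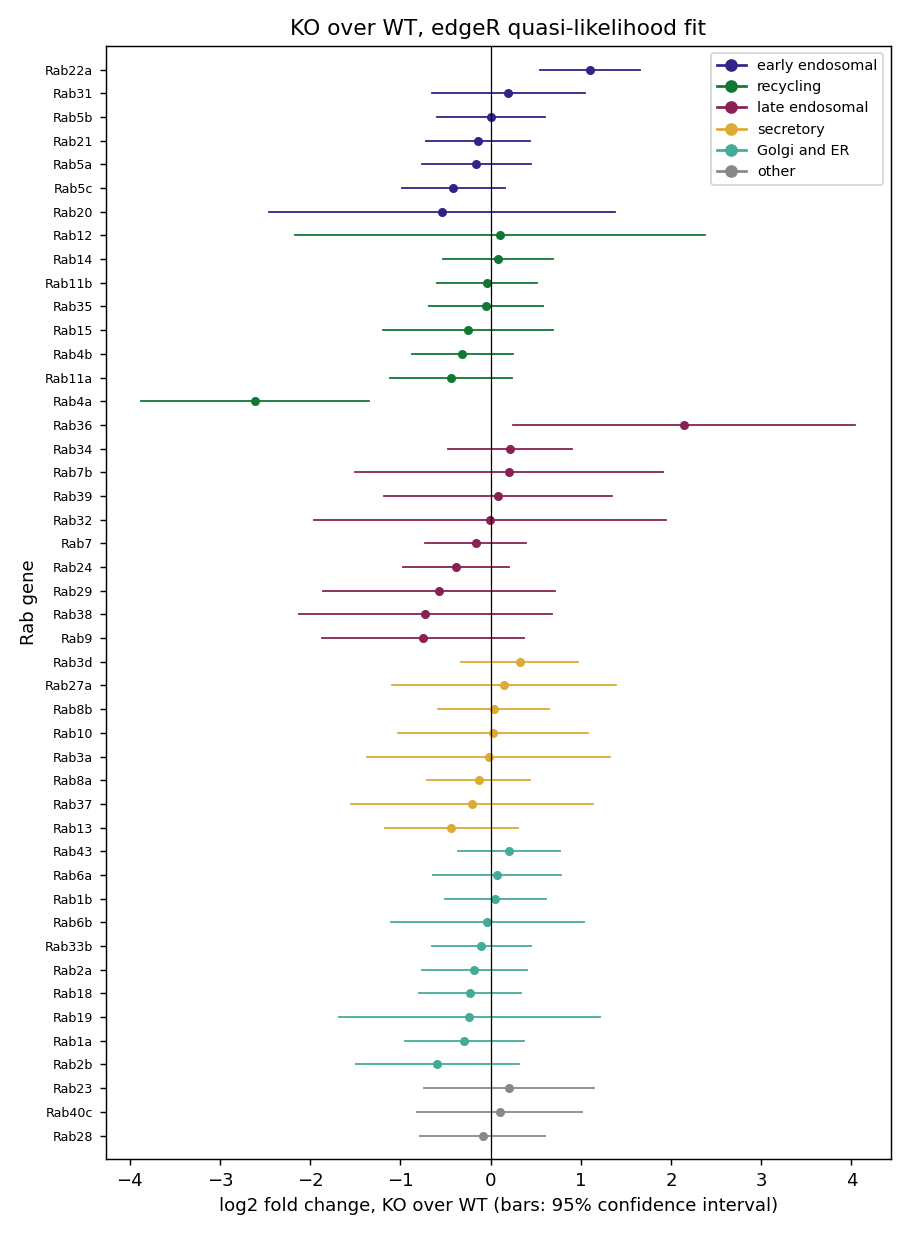
Log2 FC of KO over WT for the 46 tested Rab genes, coloured by class, with 95% confidence intervals of edgeR's quasi-likelihood fit as bars. The intervals of Rab22a (0.55 to 1.66), Rab36 (0.25 to 4.04) and Rab4a (-3.87 to -1.35) lie off 0 before adjustment for the number of genes, Rab36 having entered through its KO counts, and those of the other 43 genes include 0.

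Among early endosomal Rabs, Rab22a stood highest in fold change. Rab22a, a relative of Rab5 that sorts cargo in early endosomes and recycling tubules, lies on chromosome 2 from 173659760 to 173707343 (GRCm38, plus strand). It had 638 and 602 WT counts and 1507 and 1665 KO counts, which is 39.3 and 37.8 CPM against 80.9 and 84.6 CPM. The libraries of a genotype lay close together and those of the genotypes far apart. The mean was 38.6 ± 1.10 CPM in WT against 82.7 ± 2.63 CPM in KO (n = 2 each, SD), a log2 FC of 1.10 (SE 0.22, 2.15-fold) with an edgeR adjusted p of 0.286. Replicate 1 of KO over replicate 1 of WT gave a log2 ratio of 1.04, and the replicates 2 gave 1.16. The DESeq2 Wald test called it at 1.06 (adjusted p = 0.00957), and the adjusted p ran from 0.000124 to 0.460 over the alternative settings with all libraries and up to 1.00 with a library left out, which leaves 1 library in its genotype. Removing a trend with gene length lowered the log2 FC to 0.84. The stromal markers were higher in the same libraries as Rab22a, at 73.2 and 86.8 CPM in WT and 319 and 293 CPM in KO in sum, and their part in this value was not tested.

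A close relative of Rab22a is Rab31, also known as Rab22b, which acts between the trans-Golgi network and endosomes. It had 208 and 148 CPM in WT and 249 and 158 CPM in KO, so the genotypes overlapped. Rab22a made up 15.9% of the counts of this pair in WT replicate 1 (95% Wilson interval 14.8% to 17.1%) and 20.3% in WT replicate 2 (18.9% to 21.8%). In KO it made up 24.5% (23.4% to 25.6%) and 34.9% (33.5% to 36.2%). These intervals cover counting error only, and reads shared by near-identical copies could have been split between relatives in counting.

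The Rab5 forms, which organise fusion of early endosomes and newly formed phagosomes, were 3 genes. Rab5c had 334 and 337 CPM in WT and 238 and 267 CPM in KO. Both KO values were under both WT values, with a log2 FC of -0.41 (SE 0.22, edgeR adjusted p 0.862). Rab5a had 117 and 136 CPM in WT and 104 and 123 CPM in KO, and Rab5b had 115 and 139 CPM in WT and 121 and 134 CPM in KO. Both of these overlapped between the genotypes, at log2 FC values of -0.16 (SE 0.24) for Rab5a and 0.0043 (SE 0.24) for Rab5b, the latter turning sign with DESeq2 size factors. Rab5c made up 59.0% and 55.1% of the Rab5 counts in WT and 51.4% and 51.0% in KO. Rab20, which is known from phagosome maturation in macrophages, and Rab21, which moves integrins, had log2 FC values of -0.54 (SE 0.76) and -0.14 (SE 0.23). For Rab5a, leaving out each library in turn gave values from -0.29 (KO replicate 2) to -0.04 (KO replicate 1). The sign of Rab20 turned without KO replicate 1 (0.074) and without WT replicate 2 (0.50).

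Among recycling Rabs, Rab4a had the log2 FC largest in size of all 46 tested genes with all libraries in the fit. Without WT replicate 1 that of Rab36 was larger in size (3.06 against -1.98). Rab4a, which returns cargo quickly from early endosomes to the surface, lies on chromosome 8 from 123805985 to 123835287 (GRCm38, plus strand). It had 120 and 56 WT counts and 17 and 17 KO counts, which is 7.40 and 3.51 CPM against 0.912 and 0.864 CPM. Both KO libraries lay far below both WT libraries, and WT replicate 1 was also well above WT replicate 2. The mean was 5.46 ± 2.75 CPM in WT against 0.888 ± 0.0344 CPM in KO (n = 2 each, SD). The log2 FC was -2.61 (SE 0.50, edgeR adjusted p 0.276). The log2 ratio was -2.98 between the replicates 1 and -2.00 between the replicates 2. The DESeq2 Wald test (adjusted p = 0.00473) and the edgeR exact test (adjusted p = 0.00471) called the gene, and the adjusted p ran from 2.16e-09 to 0.366 over the alternative settings with all libraries and up to 1.00 with a library left out. Leaving out each library in turn gave log2 FC values from -3.08 to -1.98. Several marker sums of other cell types were lower in the same KO libraries as Rab4a, while the stromal sum was higher. For mast cells and basophils they were 73.9 and 69.0 CPM in WT and 30.5 and 37.8 CPM in KO. The platelet sums, nearly all from Pf4, were 225 and 149 against 80.8 and 115 CPM. The neutrophil sums, nearly all from S100a8 and S100a9, were 20.2 and 20.8 against 7.24 and 10.9 CPM. The B cell sums were 12.6 and 15.6 against 8.05 and 7.06 CPM, and the erythroid sums 9.25 and 6.84 against 1.66 and 2.29 CPM. The part of these markers in the Rab4a value was not tested. In the GENCODE annotation Rab4a overlaps Gm20388 on the same strand, which had 0 counts.

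Rab4b, the second Rab4 form, was the one with more counts. It had 45.6 and 41.4 CPM in WT and 34.1 and 36.0 CPM in KO, with both KO libraries below both WT libraries and a log2 FC of -0.31 (SE 0.22, edgeR adjusted p 0.922). Rab4a made up 14.0% of the Rab4 counts in WT replicate 1 (95% Wilson interval 11.8% to 16.4%) and 7.83% in WT replicate 2 (6.08% to 10.0%). In KO it made up 2.61% (1.63% to 4.14%) and 2.34% (1.47% to 3.72%), so the KO shares lay below both WT shares.

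Rab11a, which marks the slow route through the recycling endosome, had 190 and 185 CPM in WT and 115 and 162 CPM in KO. Both KO libraries were lower, and the log2 FC was -0.44 (SE 0.27, edgeR adjusted p 0.902). Leaving out KO replicate 1 brought it to -0.21, and leaving out KO replicate 2 to -0.72. Its relative Rab11b had between 40.1 and 44.4 CPM in every library. Rab14, which acts between the Golgi, endosomes and young phagosomes, had 128 and 156 CPM in WT and 158 and 142 CPM in KO, and Rab35, which recycles cargo from the plasma membrane and endosomes, had 79.5 and 104 CPM in WT and 83.1 and 94.0 CPM in KO. Neither separated the genotypes. Their log2 FC values were 0.08 (SE 0.24) for Rab14 and -0.05 (SE 0.25) for Rab35, and that of Rab14 turned negative with the length correction. Rab15 had between 1.93 and 2.89 CPM in every library.

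**Figure D4:**
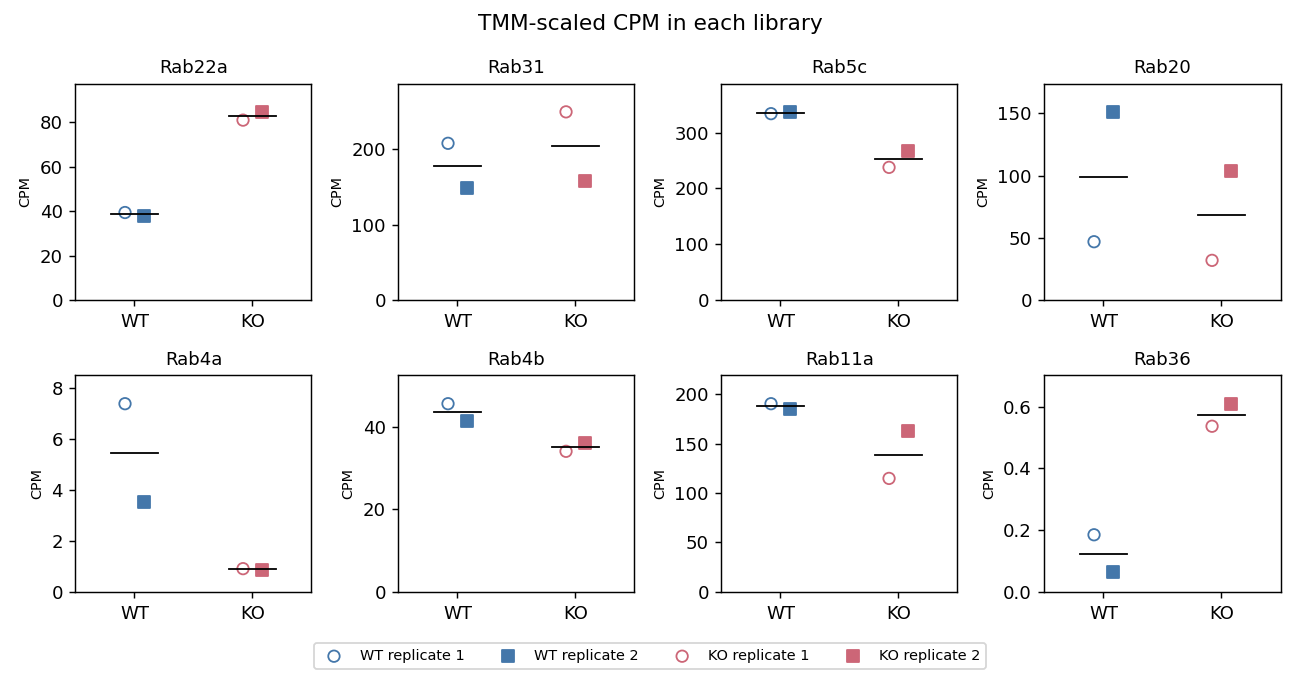
CPM (counts on TMM-scaled library totals, axes from 0) of 8 early endosomal, recycling and late endosomal Rab genes in each library, with the mean of each genotype as a black line; circles are replicate 1 and squares replicate 2, blue WT and red KO. Rab22a and Rab36 lie higher and Rab4a, Rab4b, Rab5c and Rab11a lower in both KO libraries, while Rab31 and Rab20 overlap between the genotypes.

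Among late endosomal Rabs, Rab7 had the highest CPM of all Rab genes, at 898 and 902 CPM in WT and 724 and 881 CPM in KO. Both KO values were under both WT values, though KO replicate 2 came close to them. By FPKM, KO replicate 2 (123) was above both WT libraries (120 and 119). The log2 FC was -0.17 (SE 0.22, edgeR adjusted p 0.964), and leaving out KO replicate 1 gave -0.03 and leaving out KO replicate 2 gave -0.32. Rab7b, which carries cargo from late endosomes to the trans-Golgi network, had 270 and 90.6 CPM in WT and 301 and 115 CPM in KO, a log2 FC of 0.21 (SE 0.67). Rab32, which serves lysosome-related organelles and phagosomes, had 69.4 and 235 CPM in WT and 71.0 and 232 CPM in KO, a log2 FC of -0.0087 (SE 0.77). In both, the libraries of a genotype differed far more than the genotypes. Without KO replicate 1 or WT replicate 2 the signs turned, to -0.64 and -0.41 for Rab7b and to 0.61 and 1.09 for Rab32.

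Rab36, a Rab of late endosome and lysosome positioning, had 3 and 1 WT counts and 10 and 12 KO counts. It entered the list through the KO libraries alone, as did Rab30 with 5 and 8 WT counts and 16 and 10 KO counts, so that a difference in this direction was built into its selection. The ratio of KO to WT for Rab36 was 4.62 with an exact counting interval of 1.57 to 18.4, and its edgeR adjusted p was 0.662. Its log2 FC of 2.14 rose to 3.06 with WT replicate 1 left out and dropped to 1.56 with WT replicate 2 left out. The other late endosomal members, which include Rab9 and Rab24, had log2 FC values between -0.75 and 0.22, and 0 of them had an unadjusted p under 0.05.

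Among secretory Rabs, 0 of the 8 members had an unadjusted p under 0.05. Rab8b had 338 and 303 CPM in WT and 365 and 291 CPM in KO, a log2 FC of 0.03 (SE 0.24) whose sign turned with DESeq2 size factors. Rab27a, which docks secretory lysosomes and exosome-releasing endosomes at the plasma membrane, had 5.92 and 2.95 CPM in WT and 6.28 and 3.56 CPM in KO, a log2 FC of 0.15 (SE 0.49) whose sign turned with the length correction. Both genes overlapped between the genotypes. Rab13, which acts in transport to cell junctions, had 21.4 and 14.2 CPM in WT and 13.8 and 12.5 CPM in KO. Both KO libraries were lower, at a log2 FC of -0.43 (SE 0.29, edgeR adjusted p 0.912). Leaving out WT replicate 1 gave -0.11, and leaving out WT replicate 2 gave -0.73. The regulated secretion Rabs Rab3a and Rab37 were present at 0.537 to 1.48 CPM, and Rab3d at 11.2 to 16.9 CPM.

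Of the 10 tested Golgi and ER Rabs, 0 had an unadjusted p under 0.05. Rab1b had 223 and 233 CPM in WT and 237 and 235 CPM in KO, a log2 FC of 0.05 (SE 0.22). Rab2b had 12.0 and 15.3 CPM in WT and 6.71 and 11.4 CPM in KO, with both KO libraries lower and a log2 FC of -0.59 (SE 0.36, edgeR adjusted p 0.896). Leaving out KO replicate 1 gave -0.26, and leaving out KO replicate 2 gave -1.03. Rab2b overlaps Tox4 on the opposite strand, a gene with up to 1497 counts in a library, and no source used here says that reads were counted by strand, so reads of this pair cannot be told apart. The other 8 tested members of the class had log2 FC values between -0.29 and 0.21. Outside the classes, Rab28, which is known from cilia, had 43.2 and 33.1 CPM in WT and 31.0 and 40.9 CPM in KO. Rab23, an antagonist of Hedgehog signalling, had between 1.91 and 2.84 CPM in every library. Both overlapped between the genotypes, at log2 FC values of -0.09 (SE 0.27) for Rab28 and 0.20 (SE 0.37) for Rab23.

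For 5 Rab genes the libraries of each genotype differed over 2-fold by replicate number. Over 2-fold higher levels in replicate 2 than in replicate 1, in both genotypes, were measured for 3 of the 46 tested Rabs (6.52%, against 4.36% of all genes), namely Rab12, Rab20 and Rab32. The opposite was measured for 2 (4.35%, against 2.42%), Rab7b and Rab19. Rab12 and Rab19 are named here after their values were seen. Rab12, which directs recycling endosome cargo to degradation, had 28.0 CPM in WT replicate 1 and 162 CPM in WT replicate 2, and 53.1 and 152 CPM in the KO replicates. Rab20 had 46.9 and 151 CPM in WT and 31.9 and 104 CPM in KO. The log2 ratio of replicate 2 to replicate 1 was 2.53 in WT and 1.51 in KO for Rab12, 1.69 and 1.71 for Rab20, and 1.76 and 1.71 for Rab32. For Rab7b it was -1.58 and -1.38, and for Rab19, a Golgi Rab at 4.17 to 10.6 CPM, it was -1.29 and -1.03. Among the macrophage markers, Cd14 moved in the same direction as Rab12, with 125 and 683 CPM in WT and 106 and 533 CPM in KO, and Adgre1 had 364 and 816 CPM in WT and 368 and 677 CPM in KO. Others moved the opposite way, such as Fcgr1 with 55.7 and 21.2 CPM in WT and 46.6 and 17.7 CPM in KO, and of the 8 macrophage markers 4 were higher and 3 lower in replicate 2 in both genotypes. Nothing in the labels says what the numbers stand for, and the part of the marker genes in these values was not tested.

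**Figure D5:**
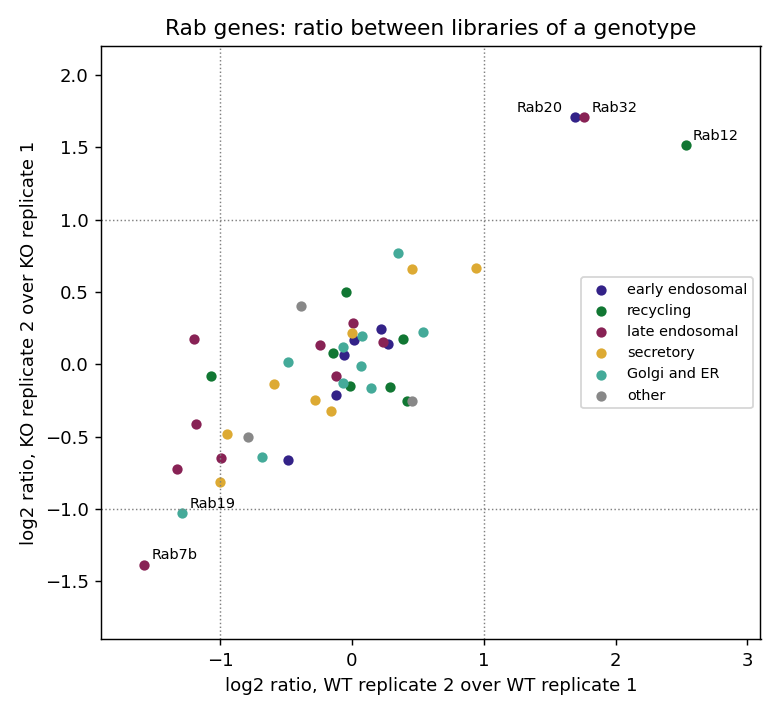
Log2 ratio of replicate 2 to replicate 1 in WT (horizontal axis) and in KO (vertical axis) for the 46 tested Rab genes, coloured by class, with dotted lines at a 2-fold difference. Rab12, Rab20 and Rab32 lie past the lines at the top right and Rab7b and Rab19 at the bottom left.

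The proteins that control or read the Rabs were listed as 8 genes of the Rab cycle, 36 GEFs, 38 GAPs and 43 effectors, of which 124 of 125 were in the table and 109 were tested. By edgeR's quasi-likelihood test 0 of the 109 were called, the DESeq2 Wald test and the edgeR exact test each called 1, Bicd1 (0.917%, against 1.46% and 1.84% of all genes). At an unadjusted p under 0.05 there were 2 higher (1.83%, against 4.64% of all genes) and 1 lower in KO (0.917% against 1.99%), shares below those of all genes. Bicd1, a dynein adaptor that binds Rab6, had 5 and 7 WT counts and 53 and 42 KO counts, a log2 FC of 2.71 (SE 0.48, edgeR adjusted p 0.251). It had enough counts to be tested only through its KO libraries, so its direction was built in, here and in the regulator counts. Tbc1d9b, a GAP, had 37.4 and 43.1 CPM in WT and 64.5 and 60.6 CPM in KO, a log2 FC of 0.64 (SE 0.23, edgeR adjusted p 0.676). Tbc1d10c, a GAP of the TBC domain family, had 27 and 17 WT counts and 8 and 8 KO counts, a log2 FC of -1.69 (SE 0.51, edgeR adjusted p 0.521). This gene was tested only through its WT libraries, so its lower KO value was built in, here and in the regulator counts. None of the 3 overlapped between the genotypes. The stromal markers, at 73.2 and 86.8 CPM in WT and 319 and 293 CPM in KO in sum, were higher in the same libraries as Bicd1 and Tbc1d9b, and the mast cell and basophil, neutrophil, B cell and erythroid sums given above were lower in the same KO libraries as Tbc1d10c. The part of these markers in the regulator values was not tested.

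The median log2 FC was -0.06 for the Rab cycle genes, 0.10 for the GEFs, 0.21 for the GAPs and 0.26 for the effectors. Over all 109 genes it was 0.16, against 0.04 for all genes and -0.07 for the Rabs themselves, and 81 (74.3%) were above 0, against 54.6% of all genes. With the length correction the median of the 109 was -0.02 and 46.8% were above 0, against 43.5% of all genes, and with DESeq2 size factors it was 0.11 and 69.7%, against 50.3%. Leaving out KO replicate 1 gave 0.02 and 54.5%, against 51.6%, and leaving out WT replicate 1 gave 0.10 and 62.2%, against 51.7%. Both KO values exceeded both WT values for 22 of the 109 (against 20.0% of all genes) and the reverse held for 6 (against 16.9%). The GDP dissociation inhibitor Gdi2, the highest of the cycle genes, had 652 and 624 CPM in WT and 614 and 602 CPM in KO, a log2 FC of -0.07 (SE 0.21).

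The 12 genes with a Rab symbol that did not pass the count rule included 5 with 0 counts in every library, which were Rab3c, Rab9b, Rab17, Rab25 and Rab39b. Just outside the rule was Rab27b, the second Rab27 form, with 9 and 11 WT counts and 8 and 4 KO counts. Just inside were Rab36 and Rab30, given above, and Rab39 with 10 and 9 WT counts and 12 and 12 KO counts. The others outside were Rab3b, Rab26, Rab33a, Rab40b, Rab42 and Rab44, each with at most 8 counts in a library.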

How the data were processed

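Total RNA of cultured macrophages was sequenced in 2 WT and 2 KO libraries. Per the labels and methods, the authors aligned reads with HISAT2 2.0.4 and counted with StringTie 1.3.3b, and deposited raw counts with an FPKM value per gene. These counts were not normalised; the deposited FPKM values are scaled by library total and gene length. The labels name mm39, but 27682 of the 34267 gene identifiers found in GENCODE M21 shared both ends with its GRCm38 loci, as did 33 of the 47 Rab genes, so the file's gene positions are given as GRCm38.

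Tests used edgeR 4.0.16 in R 4.3.3 (filterByExpr, minimum count 10 and total 15, TMM, genotype as the only term, glmQLFit and glmQLFTest, two-sided, Benjamini-Hochberg over 12418 genes). Calls needed an adjusted p below 0.05 with a log2 FC beyond 1 in size. CPM are on TMM-scaled totals (factors 0.955, 0.942, 1.12 and 0.997), log2 ratios within a number had 0.5 counts added, and intervals are 95%. No library repeated another (lowest chi-square of a pair, per degree of freedom, 22.7). The code was tested on simulated data.

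The members, classes and lists were chosen with earlier results of these data known. Named were G3bp1; 12 Rabs of the endocytic and secretory routes; per class the highest FPKM and the smallest p; members with an unadjusted p under 0.05; members with non-overlapping libraries and an absolute log2 fold change of at least 0.5; members at the count rule; and regulators with an unadjusted p under 0.05. Settings varied were the scaling (DESeq2 size factors), the test (Wald test of DESeq2 1.42.0, exact test of edgeR), the filter (none, or mean CPM from 1), no minimum fold change, a loess trend with gene length (span 0.5), a replicate term, each library left out, the class of 4 Rabs, and CPM in place of FPKM. A GENCODE exon length in place of the implied length was added after seeing the data. Of marker symbols shared by several genes, 1 row was dropped.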

Additional observations from a re-analysis of the deposited data

How the results depend on the processing

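0 Rab genes were called with DESeq2 size factors, either filter, no minimum fold change or the length correction, as were 0 of all genes (0.0%) with each of these. Leaving out a library leaves 1 in its genotype, assumed to vary like the other genotype, so these fits say little about stability. The DESeq2 Wald test called 2 Rab genes, 1 regulator or effector and 181 of all genes, and the edgeR exact test called 1, 1 and 229. With a term for the replicate number (replicate block) the calls were 2 (4.35%), 3 (2.75%) and 664 (5.35%), and with the block and the length correction 1 (2.17%), 1 (0.917%) and 368 (2.96%), while leaving out a library gave 0 to 1 of all genes. The block called Rab4a and Rab22a, and Bicd1, Sh3tc2 and Tbc1d10c. Sh3tc2 had 5 and 0 WT counts and 15 and 20 KO counts. It and Bicd1 were tested only through their KO counts and Tbc1d10c only through its WT counts, so their directions were built in. After subtraction of genotype means, libraries with the same number correlated at 0.710, but with 2 pairs and no label for the number the pairing was not established. The cause of these differences was not tested.

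The mean early share of 24.7% was 19.1% by CPM and 20.1% by GENCODE length; the recycling share of 8.14% was 12.0% and 10.1%, and 20.6% with Rab8a, Rab8b, Rab10 and Rab13 moved; the late share of 23.0% was 28.1% and 33.7%; the secretory share of 12.7% was 14.4% and 10.7%, and 0.211% with those genes moved; and the Golgi and ER share of 30.8% was 25.2% and 24.5%. Signs turned for 10 of the named Rab genes, 0 of which was called. With the length correction, without and with the block, Rab14 was -0.20 and -0.20, Rab23 -0.092 and -0.092, Rab5b -0.0083 and -0.0035, and Rab8b -0.061 and -0.067; Rab32 was 0.044 and 0.10, and 0.0058 with the block alone; Rab27a was -0.035 without it. With DESeq2 size factors or the Wald test Rab5b was -0.034 and Rab8b -0.0082, and with no filter Rab5b was -0.011. Leaving out each library gave -0.057 to 0.20 for Rab14, -1.64 to 0.50 for Rab20, -0.011 to 0.42 for Rab23, -0.32 to 0.74 for Rab27a, -0.31 to 0.12 for Rab28, -1.11 to 1.09 for Rab32, -0.23 to 0.12 for Rab35, -0.12 to 0.11 for Rab5b, -0.64 to 1.20 for Rab7b and -0.14 to 0.18 for Rab8b. The length correction moved the median of all genes to -0.05 and that of the Rabs to -0.10. Depth limits Rab36, Rab30 and Rab39, at most 16 counts in a library.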
